A study of Homo sapiens with 15 samples.

Results

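The step from 5 to 50 nM ZJ-101 was taken as 3 libraries of MDA-MB-231 cells treated with 50 nM against 3 libraries of cells treated with 5 nM, which are 6 of the 15 libraries in the series. Its members are the 13561 genes, of 59608 listed, whose normalized counts averaged 10 or more across all libraries. MDA-MB-231 is a human breast cancer cell line with mesenchymal features, and ZJ-101 is a synthetic analog of superstolide, a marine natural product. All cells were grown as a monolayer in 10 cm dishes and harvested after 6 h. The 5 groups are the DMSO vehicle and ZJ-101 at 0.5, 5, 50 and 500 nM, each with 3 biological replicates and a poly-A library from each dish, so every group shares the line, the culture format and the time. A dish is a replicate of 1 line, and p-values therefore measure the spread between dishes. The dose range was chosen by the study to span its phenotypes at a time before cell shape is altered, and the comparison of 50 with 5 nM asks which transcripts moved within that single 10-fold increase.

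Cytosolic heat-shock proteins hold unfolded proteins in solution, and their genes are driven by HSF1, a factor that binds repeated GAA units in promoters. The endoplasmic reticulum (ER) has a separate set of chaperones, led by the HSP70 protein HSPA5 (also called BiP), whose genes are driven by the sensors of the unfolded protein response. Proteins that fold there are carried in COPII vesicles to the Golgi apparatus, where glycosyltransferases add sugars, and then reach the plasma membrane or the matrix around the cell.

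The libraries at 5 nM held 13225890 to 15284762 reads on genes and those at 50 nM 12415519 to 12623863, so that each library at 50 nM was shallower than each at 5 nM. The deposited values are counts divided by a size factor per library, called normalized counts below, and the size factors of the series lay between 0.916 and 1.13. Of the markers of the line, VIM lay between 13430 and 18410 normalized counts over all libraries. Of 4 leukocyte, 3 fibroblast, 3 basal keratinocyte and 3 endothelial markers, all but 3 stayed at 5.32 or less in every library, among them CD3E, KRT5, KRT14 and DCN. The 3 were PECAM1 (201 to 321), CD14 (7.07 to 28.8) and TP63 (11 to 30.4). Of the luminal breast markers, ESR1 stayed at or below 4.30, while CDH1 lay between 107 and 206 and GATA3 between 122 and 168. The second replicate at 0.5 nM stood apart: in a chi-square test of reads over genes, its statistic per degree of freedom was 11.1 and 16.5 against the other replicates of its dose, and 2.04 to 6.27 in every other pair of replicates. It enters the results below through the shared estimate of the spread and through the step from 0.5 to 5 nM, so the counts of the step, of its contrasts with other steps and of the main lists are also given without it.

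Between 5 and 50 nM, the amino acid transporter subunit SLC3A2 rose, with 6 of 12 HSP90, HSP70 and HSP110 chaperones and 12 of 24 co-chaperones of the cytosol. The 4 ID genes fell, as did 9 of 28 ER chaperones and folding enzymes and 8 of 38 vesicle transport genes. So did 8 of 26 glycosaminoglycan synthesis genes, 12 of 46 matrix genes and 8 of 32 matrix proteases and inhibitors. Most members of each of these lists were not called. Of the 13561 genes tested, 355 rose (2.62%) and 324 fell (2.39%), which together are 679 genes or 5.01%, with an adjusted p under 0.05 by limma on log2(normalized count + 1). Most differences were small: the median log2 difference was 0.29 among genes that rose and -0.37 among genes that fell, and 4 rises and 16 falls reached a log2 difference of 1, which is a doubling or its inverse. For 674 of the 679 genes the 3 libraries at 50 nM did not overlap the 3 at 5 nM. Over all genes tested, 1610 (11.9%) stood higher at 50 nM without overlap and 1599 (11.8%) stood lower. The overlap is taken from the same 6 libraries as the call, so here and below it describes a called gene and adds no support. The fit took its spread from all 5 groups. The 12 treated libraries called 519 genes, the 6 libraries of the 2 doses alone called 853, and the fit without the second replicate at 0.5 nM called 1129, among which were all 679. In a culture of 1 line, fewer cells that make a transcript and less transcript per cell cannot be told apart in these bulk libraries.

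**Figure D1:**
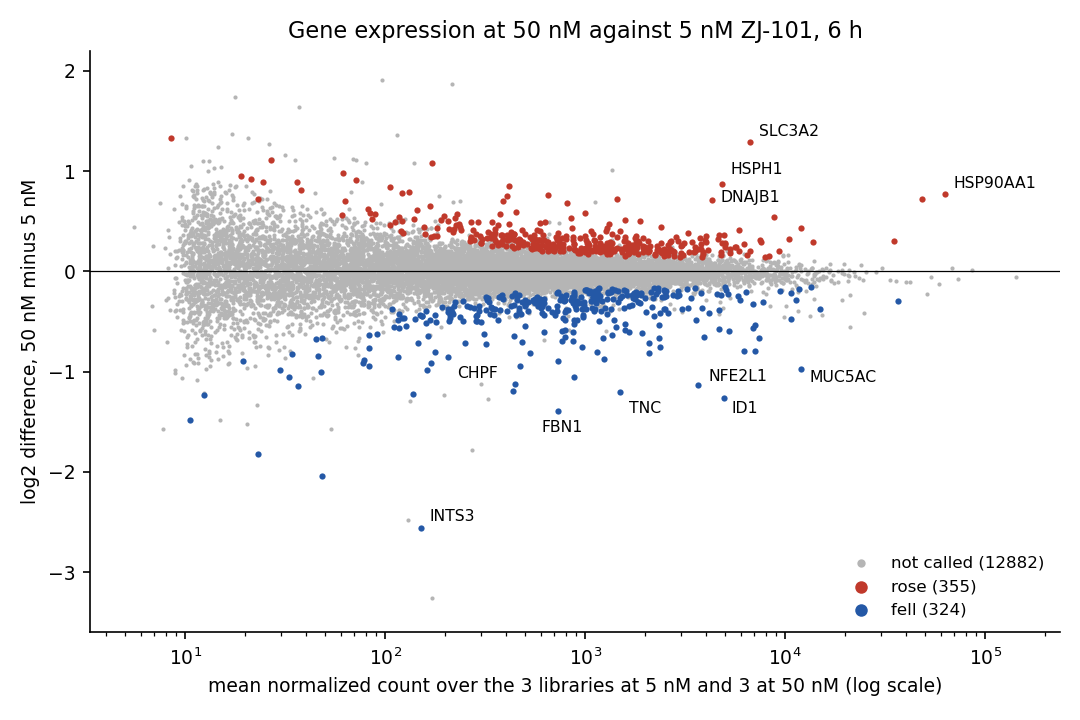
Each point is 1 of the 13561 genes. The horizontal axis is the mean normalized count over the 6 libraries on a log scale and the vertical axis is the log2 difference of 50 nM minus 5 nM. Red points are the 355 genes that rose, blue points the 324 that fell and grey points those not called. SLC3A2 stands at 1.29 and HSP90AA1, among the most abundant genes, at 0.77, and ID1, NFE2L1, FBN1 and TNC lie between -1.14 and -1.39.

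The members of the HSP90, HSP70 and HSP110 families had the highest median difference of the 47 gene lists examined. Of 12 tested, 6 rose and 1 fell, with a median log2 difference of 0.30, against a median of -0.00075 over all genes. HSPH1, an HSP110 protein that exchanges the nucleotide of HSP70, stood at 3179, 3760.5 and 3317 normalized counts at 5 nM and at 6671.5, 5589.7 and 6509.5 at 50 nM. Every library at 50 nM lay above every library at 5 nM, and the log2 difference was 0.87 with a standard error of 0.07 (adjusted p = 9.5e-08). The DMSO libraries had a mean of 3142, close to that at 5 nM. HSP90AA1, the stress-inducible HSP90, had 45113, 49892 and 45013 normalized counts at 5 nM and 83750, 75657 and 78865 at 50 nM. These groups also lay apart, with a log2 difference of 0.77 ± 0.06 (SE, adjusted p = 9.9e-08) and a DMSO mean of 43955. HSP90AA1 shares near-identical sequence with HSP90AA2P, which rose by 0.85, so reads cannot be assigned with certainty between them. HSPA8, the constitutive HSP70 of the cytosol, rose from 36798, 38577 and 34192 to 63856, 57772 and 59543, without overlap and by 0.73 ± 0.06. All 3 libraries at 5 nM were already above those of DMSO, whose mean was 30834. HSP90AB1, the constitutive HSP90, rose by less, 0.30 ± 0.05 (adjusted p = 5.8e-04), from 31301, 32048 and 31019 to 40909, 36763 and 38493. HSP90AB1 has a near-identical pseudogene, HSP90AB3P. HSPA4L (0.47) and HSPA4 (0.25), relatives of HSPH1, rose too. The member that fell was HSPA13, an HSP70 relative found with ER membranes, at -0.23 (adjusted p = 0.015). The inducible HSPA6 had 8.21, 11.6 and 3.09 normalized counts at 5 nM and 24.7, 16.4 and 9.57 at 50 nM, and did not pass the test (adjusted p = 0.19). HSPA6 has a near-identical copy, HSPA7. The stress-inducible pair HSPA1A and HSPA1B had means of 0.902 and 0.209 over the 15 libraries and were not tested. They are near-identical paralogs, and their values are therefore uncertain.

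Of 24 co-chaperones tested, 12 rose in the same step and 0 fell, with a median of 0.15, where 2.62% of all genes rose. DNAJB1, the J-domain partner of HSP70 in disaggregation, had tight replicates: 3337, 3301.5 and 3178 at 5 nM and 5415.5, 5452 and 5192 at 50 nM. Its difference of 0.71 ± 0.04 had the smallest adjusted p of the chaperone genes, 7.8e-09. CHORDC1, an HSP90 co-chaperone, went from 1065, 1138 and 1059 to 1879, 1619 and 1899.7 (0.72 ± 0.07), and DNAJA1, another J-domain protein, from 7009, 7424 and 6922 to 10831, 10005 and 10371 (0.55 ± 0.04). Neither gene's groups overlapped, and the DMSO means were 1026 and 7052. Other rises were those of DNAJB4 (0.57), STIP1 (0.31), which links HSP70 to HSP90, AHSA1 (0.30), the activator of the HSP90 ATPase, BAG3 (0.27), which directs clients to autophagy, and DNAJB6 (0.21). Of 9 small heat-shock proteins, HSF factors and ubiquitin genes, 3 rose, HSPB1 by 0.38 and UBB by 0.19 among them. A share of 29.4% of the exon bases of UBB also lies in another gene, and the strand of counting is not stated. TCP1 (0.24) and CCT6A (0.20) rose among 13 subunits of the TRiC and prefoldin chaperonins. HSPD1 (0.32), which has 2 near-identical pseudogenes, was the single call among 13 mitochondrial chaperones and proteases. None of 31 proteasome subunits was called by limma, edgeR or DESeq2, with a median of -0.04 and 4 falls at an unadjusted p under 0.05. That level was reached by 2393 of the 13561 genes in the limma fit.

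The promoters of the chaperone genes are shown because 8 of the 268 genes that rose and have a promoter in the table used here hold a strict heat shock element in it. Promoter sequences are from RefSeq on GRCh38.p14, with 1 or more windows for 10029 of the 13561 genes, each reaching from 250 bases before to 50 bases after an annotated start. The element was taken as 3 alternating GAA units with 2 free bases between them, GAANNTTCNNGAA or TTCNNGAANNTTC on either strand. It was found in 2.99% of genes that rose (8 of 268), in 0.394% of genes that fell (1 of 254), in 0.421% of genes not called (40 of 9507) and in 0.49% of all 35093 windows in the table. The 8 genes were HSPA8, HSP90AA1, HSP90AB1, CHORDC1, DNAJA1, DNAJB6, HSPD1 and ABHD3. Letters that fit are a description of the sequence and do not show that a factor was bound. The 250 bases before the start of 4 of them follow, 5′ to 3′ on the strand of the gene, with each element in capitals.
HSPA8, chr11:123062137-123062386, minus strand: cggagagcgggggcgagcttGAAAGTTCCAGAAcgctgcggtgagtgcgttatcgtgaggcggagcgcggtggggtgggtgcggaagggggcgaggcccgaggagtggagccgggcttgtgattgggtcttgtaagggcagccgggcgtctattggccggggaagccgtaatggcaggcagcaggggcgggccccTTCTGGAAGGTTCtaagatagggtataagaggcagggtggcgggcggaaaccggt
HSP90AA1, chr14:102087045-102087294, minus strand: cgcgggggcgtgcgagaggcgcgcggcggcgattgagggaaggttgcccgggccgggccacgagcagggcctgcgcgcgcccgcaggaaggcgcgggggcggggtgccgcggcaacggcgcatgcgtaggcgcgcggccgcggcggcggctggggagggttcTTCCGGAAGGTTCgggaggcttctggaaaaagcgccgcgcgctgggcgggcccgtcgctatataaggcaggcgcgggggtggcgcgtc
HSP90AB1, chr6:44247693-44247942, plus strand: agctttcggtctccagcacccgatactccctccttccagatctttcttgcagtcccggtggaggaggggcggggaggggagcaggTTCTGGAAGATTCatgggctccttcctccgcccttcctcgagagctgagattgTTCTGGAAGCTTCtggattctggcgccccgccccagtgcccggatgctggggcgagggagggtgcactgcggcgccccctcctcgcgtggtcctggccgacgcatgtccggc
CHORDC1, chr11:90223050-90223299, minus strand: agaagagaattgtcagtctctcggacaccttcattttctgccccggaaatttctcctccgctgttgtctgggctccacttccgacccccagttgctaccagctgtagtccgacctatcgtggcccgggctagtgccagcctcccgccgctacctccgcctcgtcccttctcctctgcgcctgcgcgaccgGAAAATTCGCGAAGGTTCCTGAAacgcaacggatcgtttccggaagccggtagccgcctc
HSPA8 and HSP90AB1 hold 2 elements each, HSP90AA1 holds 1, and CHORDC1 holds 3 that overlap in 1 run. HSP90AA1 has 1 further window and HSP90AB1 has 2 further windows in the table, at other starts. HSPH1 and DNAJB1 have windows in the table without this strict form.

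SLC3A2, the heavy chain that carries amino acid exchangers such as the leucine transporter SLC7A5 to the plasma membrane, had the largest rise among genes averaging 100 or more in the 6 libraries. Its transcript (chr11:62856004-62888880, GRCh38, plus strand) stood at 4199.6, 4006.5 and 3465 normalized counts at 5 nM and at 9851, 9062 and 9539 at 50 nM. The lowest library at 50 nM was more than 2 times the highest at 5 nM, and the log2 difference was 1.29 ± 0.07 (adjusted p = 1.4e-09). SLC3A2 had a DMSO mean of 2478 and was 1 of the genes that had also risen from 0.5 to 5 nM, by 0.59 (adjusted p = 4.2e-04). Of 15 amino acid transporter genes, 4 rose and 0 fell, with a median of 0.13, and all 15 had a positive difference. SLC7A5 went from 3979.8, 4413 and 3956 to 5458, 4797 and 5165 (0.32 ± 0.06), and SLC38A9, a lysosomal arginine sensor, from 317, 308 and 297 to 412, 398 and 396 (0.39 ± 0.06). The cystine exchanger SLC7A11, the other well-known partner of SLC3A2, had 564, 558 and 580.0 and 658, 573 and 685, and its groups overlapped (adjusted p = 0.23). ATF4 is the factor of the amino acid response. Of 23 of its targets tested, 1 rose (GDF15, 0.41) and 2 fell (VLDLR at -0.64 and DDIT4 at -0.38), where 2.62% of all genes rose and 2.39% fell. SLC3A2 and SLC7A5 were counted with the transporters and are not in this list. A role of ATF4 was not tested. In this list 17 differences were negative and 6 positive. At an unadjusted p under 0.05 by limma, which 2393 of the 13561 genes reached, the list had 7 falls and 2 rises. The means of the ATF4 transcript itself were 3704 and 3550.4 (adjusted p = 0.61). CHAC1, a sensitive ATF4 target, had means of 61.8 and 55.3 (adjusted p = 0.71), and DDIT3 55 and 60.6. ATF4 has a near-identical pseudogene, ATF4P3, and DDIT3 shares 39.6% of its exon bases with MARS1, so both values are uncertain. None of 20 cytosolic aminoacyl-tRNA synthetases was called by limma or edgeR, while DESeq2 called 1 fall and 2 falls had an unadjusted p under 0.05.

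Calls in the list of ER chaperones and folding enzymes were all falls. Of 28 ER chaperones and folding enzymes tested, 9 fell and 0 rose, with a median of -0.18, where 2.39% of all genes fell. CKAP4, a membrane protein that shapes ER sheets, showed the largest fall, from 7341, 8003 and 8185 at 5 nM to 4411, 4864 and 4337.5 at 50 nM. No library overlapped, and it fell by 0.79 ± 0.05 (SE) on the log2 scale (adjusted p = 3.4e-08). CALR, the calcium-binding lectin chaperone, fell from 16902, 16883 and 17005 to 12118, 14204 and 12847, by 0.38 ± 0.05. HSPA5 fell from 12377, 12560 and 12287 to 10064, 10736 and 9771, by 0.29 ± 0.04 (adjusted p = 3.3e-04). For both genes the 3 libraries at 5 nM lay close together and above all 3 at 50 nM. Their DMSO means were 20155 and 14143, higher than either dose. The thioredoxin-like ERP44 (-0.49), the oxidases ERO1A (-0.41) and ERO1B (-0.43, whose groups overlapped), MANF (-0.30), the HSPA5 partner DNAJC3 (-0.29) and the disulfide isomerase PDIA6 (-0.22) also fell. PDIA6 shares 25.2% of its exon bases with ATP6V1C2. The call of ERO1B ended without the first or the third replicate at 5 nM or the first or second at 50 nM, and that of DNAJC3 without the second or the third at 5 nM or the first or the third at 50 nM. The fall was not shared by every abundant ER chaperone. HSP90B1, the HSP90 of the ER, had 14181, 14259 and 14739 and 14487, 14717 and 13716, CANX means of 19140 and 20149, PDIA4 6774 and 6462 and HYOU1 4061 and 4327, and none of the 4 passed the test.

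Of 13 sensors and factors of the unfolded protein response, 3 fell and 0 rose, where 2.39% of all genes fell and 2.62% rose. ATF6, the sensor cut in the Golgi, fell from 953, 1021 and 1006 to 794, 761 and 792 (-0.34 ± 0.05). The falls of the kinase EIF2AK3 (-0.28, adjusted p = 0.046) and of XBP1 (-0.20, adjusted p = 0.040) were close to the threshold. EIF2AK3 lost its call in 15 of the 26 alternative settings, DESeq2 among them, and XBP1 in 10. DNAJB9, an IRE1 and XBP1 target, had 364, 335 and 351 and 303, 329 and 347, with groups that overlapped (adjusted p = 0.58). ER-associated degradation split: 4 of 20 genes fell and 4 rose. EDEM3, a mannosidase-like protein that marks glycoproteins for disposal, fell from 1389, 1458 and 1516 to 862, 808 and 824, by 0.81 ± 0.08 (adjusted p = 1.8e-06), and EDEM1 fell by 0.43. The lectin ERLEC1 (-0.29) and HERPUD1 (-0.25, adjusted p = 0.046) made up the falls. HERPUD1 lost its call in 19 of the 26 settings, among them DESeq2 (adjusted p = 0.084), the replicate block (0.056) and the 6 libraries alone (0.085). The ubiquitin ligase SYVN1 (0.24), FAF2 (0.30) and SELENOS (0.20), which act at the extraction channel, were among the rises. Of 24 translocon and signal recognition genes 2 rose, SEC62 by 0.35 and SRPRB by 0.29, and 0 fell. Another gene covers 21.3% of the exon bases of SRPRB.

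Promoters of ER genes are shown because the ER stress element was found among the genes that fell. The element was taken as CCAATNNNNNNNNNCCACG, which is CCAAT and CCACG with 9 free bases between them, on either strand. It was found in 1.97% of genes that fell and have a promoter (5 of 254: CALR, ERO1B, HSPA5, PDIA6 and XBP1), in 0 of 268 genes that rose, in 0.116% of genes not called (11 of 9507) and in 0.0769% of all windows. It was also found in CANX, CRELD2 and HSP90B1 of the ER chaperone list, which were not called. The promoters of 4 of the genes that fell follow with the element in capitals, in the form and from the source given above.
HSPA5, chr9:125241344-125241593, minus strand: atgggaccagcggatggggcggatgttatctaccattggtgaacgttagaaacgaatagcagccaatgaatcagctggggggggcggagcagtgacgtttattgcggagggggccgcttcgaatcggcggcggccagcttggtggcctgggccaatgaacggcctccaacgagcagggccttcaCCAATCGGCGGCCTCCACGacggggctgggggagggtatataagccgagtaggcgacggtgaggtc
CALR, chr19:12938359-12938608, plus strand: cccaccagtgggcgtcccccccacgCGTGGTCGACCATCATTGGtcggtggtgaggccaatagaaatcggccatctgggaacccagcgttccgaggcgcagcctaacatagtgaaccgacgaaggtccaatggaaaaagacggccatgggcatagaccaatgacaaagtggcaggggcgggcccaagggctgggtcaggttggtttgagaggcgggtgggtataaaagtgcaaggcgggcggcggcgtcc
PDIA6, chr2:10812786-10813035, minus strand: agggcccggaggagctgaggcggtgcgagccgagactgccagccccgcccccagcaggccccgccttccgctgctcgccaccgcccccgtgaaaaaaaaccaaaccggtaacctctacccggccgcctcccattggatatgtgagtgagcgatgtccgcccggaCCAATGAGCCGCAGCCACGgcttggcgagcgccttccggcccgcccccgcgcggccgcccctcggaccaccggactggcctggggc
XBP1, chr22:28800570-28800819, minus strand: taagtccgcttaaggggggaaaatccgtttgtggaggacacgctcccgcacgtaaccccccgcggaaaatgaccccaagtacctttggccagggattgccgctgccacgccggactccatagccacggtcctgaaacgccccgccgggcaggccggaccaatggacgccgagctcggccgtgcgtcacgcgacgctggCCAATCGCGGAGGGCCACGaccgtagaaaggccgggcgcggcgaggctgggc
The element began 66 bases before the start of HSPA5, 86 before that of PDIA6 and 52 before that of XBP1, and in CALR it lay on the other strand, 225 bases before the start. PDIA6 and XBP1 each have 1 further window in the table. Another motif, the C/EBP-ATF composite TGATGNAA, was found in 3.36% of genes that rose and 1.97% of genes that fell, beside 2.69% of genes not called. By list, it was found in 5 of 13 amino acid transporters with a promoter, SLC3A2 among them, and in 4 of 18 ATF4 targets.

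Of 38 COPI, COPII and cargo receptor genes, which serve transport between the ER and the Golgi, 8 fell and 0 rose (median -0.10), and most were not called. SEC24D, a cargo-selecting subunit of the COPII coat, went from 1168, 1206 and 1277 at 5 nM to 731, 751 and 683 at 50 nM, a fall by 0.75 ± 0.06 (adjusted p = 3.4e-07) without overlap. Its DMSO mean was 1224, within the range of the libraries at 5 nM. SEC24A (-0.42), the p24 cargo receptors TMED3 (-0.46), TMED9 (-0.38) and TMED10 (-0.18) and the COPI subunit COPG1 (-0.20) fell by less. Of 32 golgins, tethers and SNAREs, STX5 (-0.24) and GOLGA5 (-0.19) fell, both near the threshold. Of 17 subunits of the V-type ATPase, the proton pump of endosomes, 2 isoforms of its membrane sector rose. ATP6V0A1 had 721, 716 and 748 at 5 nM and 993, 931 and 1019 at 50 nM (0.43 ± 0.05), and ATP6V0A2 had 717, 694 and 672 and 1049.8, 942 and 1034 (0.54 ± 0.07). Both stood apart from 5 nM in all 3 libraries. Of 30 lysosomal genes, NAGLU fell by 0.72 and LAMP1 rose by 0.14. Of 30 autophagy genes WIPI1, which shares 28.1% of its exon bases with ARSG, fell by 0.35. The calls in these 2 lists are near the share over all genes, of which 5.01% were called.

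Among the sugar-adding enzymes of the Golgi, those that build glycosaminoglycans gave the most falls. Of 26 tested, 8 fell and 1 rose, with a median of -0.18. This list and those below are to be read beside 2.62% of all genes that rose and 2.39% that fell. CHPF, a chondroitin polymerizing factor (chr2:219538954-219543809, minus strand), had 606, 579 and 654 normalized counts at 5 nM and 326, 266 and 255 at 50 nM. The groups lay far apart, with a fall by 1.12 ± 0.08 (adjusted p = 6.0e-08), and its DMSO mean was 882. Its paralog CHPF2 fell from 960.3, 906 and 986 to 518, 499.9 and 518 (-0.89 ± 0.07). The heparan sulfate enzymes EXTL3 (-0.47), GLCE (-0.41), EXT1 (-0.36) and HS2ST1 (-0.27) fell, and the chondroitin initiation enzyme CSGALNACT2 rose by 0.26. B4GALT1, which adds galactose to N-glycans, fell from 2298, 2295 and 2419.8 to 1487, 1552 and 1537, by 0.62 ± 0.05 (adjusted p = 2.9e-07). It and B4GALT3 (-0.24, adjusted p = 0.048) were the calls among 10 galactosyltransferases. B4GALT3 lost its call in 17 settings and shares 28.7% of its exon bases with PPOX, and CHPF2 shares 22.1% with SMARCD3. Of 21 O-glycosylation genes 4 fell and 0 rose, among them GALNT1, which starts mucin-type chains, from 1258.5, 1258.5 and 1259.8 to 965, 1067.5 and 1010.5 (-0.31 ± 0.05), and the O-fucosyltransferases POFUT1 (-0.26) and POFUT2 (-0.39). N-glycan genes split, with 3 of 35 lower and 2 higher. The trimming and branching enzymes MOGS (-0.49), MAN1B1 (-0.24) and MGAT1 (-0.23) fell, while ALG2 (0.34) and ALG5 (0.31), which assemble the lipid-linked precursor, rose.

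**Figure D2:**
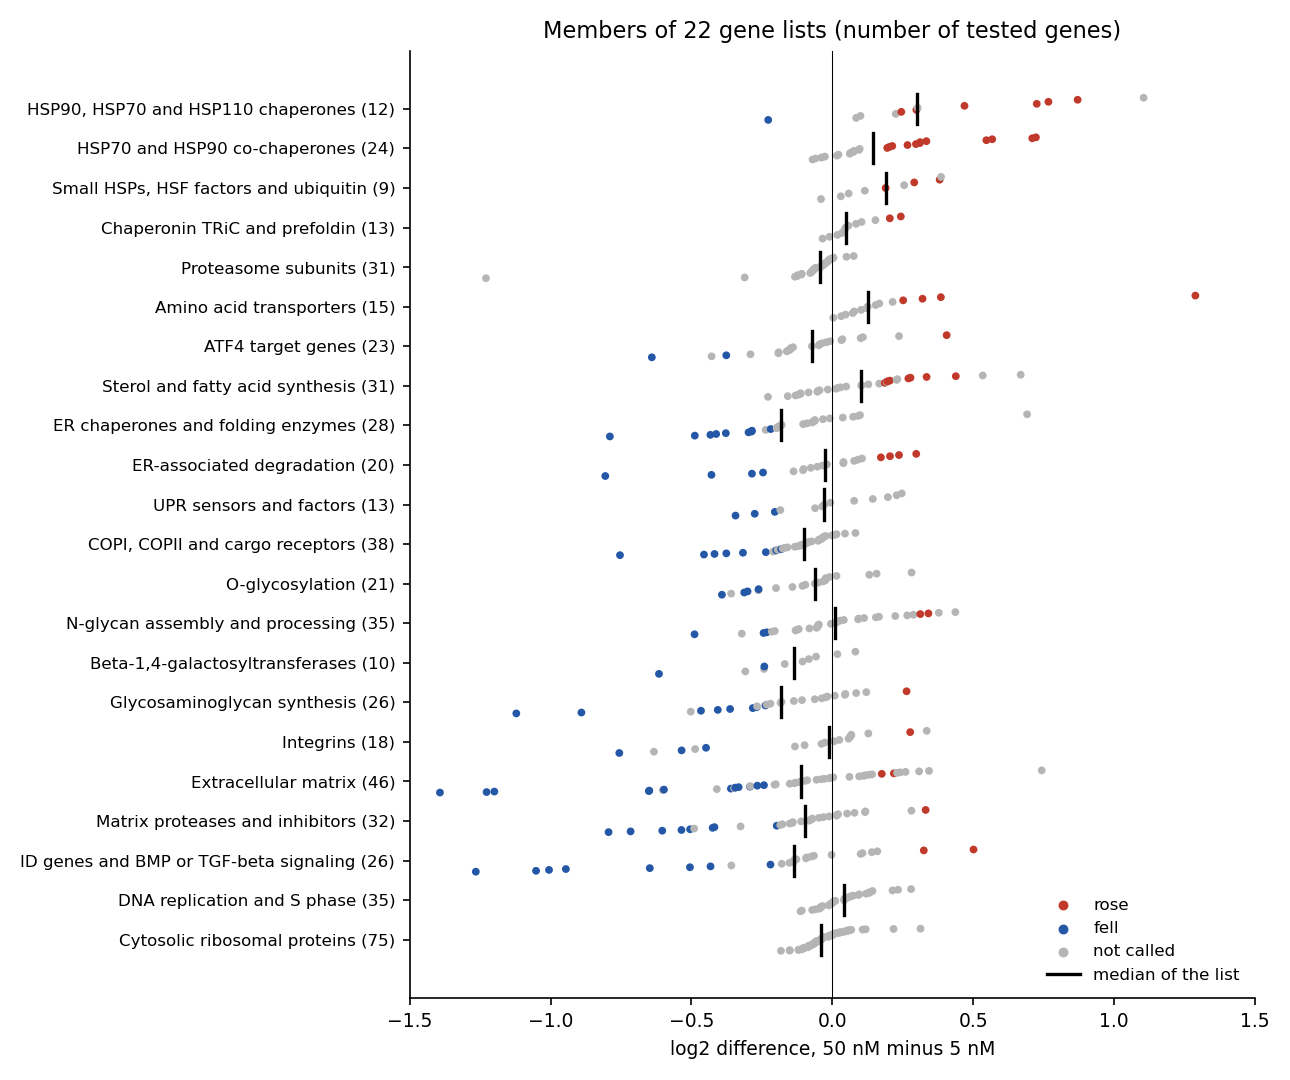
Each point is a tested member of 1 of 22 gene lists, placed by its log2 difference of 50 nM minus 5 nM on the horizontal axis. Red points rose, blue points fell, grey points were not called, and a black bar is the median of the list. Medians range from 0.30 for the HSP90, HSP70 and HSP110 families to -0.18 for ER chaperones and folding enzymes and for glycosaminoglycan synthesis. Ribosomal protein genes lie around -0.04.

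Falls were also found in the lists of the matrix and its proteases, where 2.39% of all genes fell. Of 46 extracellular matrix genes 12 fell and 2 rose (median -0.11). FBN1, the fibrillin of elastic microfibrils (chr15:48408313-48645721, minus strand), had 1066, 1024 and 1076.5 at 5 nM and 427, 367 and 413 at 50 nM, a fall by 1.39 ± 0.10 (adjusted p = 8.9e-08). Its DMSO, 0.5 and 500 nM means were 956, 1044 and 403, the first 2 near the level at 5 nM and the last near that at 50 nM. TNC, tenascin C, fell from 2159, 2030.4 and 2081 to 924, 847 and 959, by 1.20 ± 0.09, and OLFML2A from 185, 197 and 195 to 72, 89.5 and 84, by 1.23 ± 0.13. None of the 3 genes had libraries that overlapped. Smaller falls were those of COL13A1 (-0.65), LTBP1 (-0.65), COL5A1 (-0.36) and COL6A1 (-0.34), while the laminin chains LAMB3 (0.22) and LAMB2 (0.18, adjusted p = 0.048, lost in 14 settings) rose. VWA1, a matrix protein with a von Willebrand factor A domain, had 582, 634 and 758 and 437, 596 and 519, with groups that overlapped (adjusted p = 0.068). It passed the test with DESeq2 and without the second replicate at 0.5 nM, the first at 5 nM or the second at 50 nM.

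Of 32 matrix proteases and inhibitors 8 fell and 1 rose. MMP14, the membrane-anchored collagenase (chr14:22836560-22849041, plus strand), had 8804, 8435.5 and 9580.1 normalized counts at 5 nM and 5005, 5303 and 5137 at 50 nM. The groups lay far apart, with a fall by 0.79 ± 0.05 (adjusted p = 1.2e-08). PLAUR, the urokinase receptor, fell from 2548, 2572 and 2653 to 1598, 1609 and 1524 (-0.72 ± 0.05), and its ligand PLAU from 2783, 2718.5 and 2792 to 1980.3, 2011 and 1741 (-0.54 ± 0.05). PLAU shares 31.0% of its exon bases with C10orf55. MMP1 (-0.60) and the sheddase ADAM10 (-0.42) fell as well.

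Among 18 integrins 3 fell and 1 rose, where 2.39% of all genes fell and 2.62% rose. ITGA5, the fibronectin receptor subunit, fell from 2919, 2947 and 3072 to 1771, 1839 and 1683, by 0.76 ± 0.06 (adjusted p = 7.2e-08), with a DMSO mean of 2847. ITGA6 fell by 0.54 and ITGB5 by 0.45, whereas ITGB4, the partner of ITGA6 in hemidesmosomes, rose by 0.28 (adjusted p = 0.027). ITGAV had 2226, 1837 and 2117 and 2155, 2039 and 2267, which overlapped (adjusted p = 0.68). Cell-cell adhesion genes moved both ways, with 6 of 30 lower and 3 higher. ICAM1, a ligand of leukocyte integrins, fell from 628, 685 and 715 to 337, 465 and 362 (-0.81 ± 0.10). It shares 25.4% of its exon bases with the antisense gene ICAM4-AS1. PCDH7 (-0.43), CDH11 (-0.30) and CD44 (-0.21) fell, and CLDN1 (0.70), PVR (0.29) and CLDN4 (0.28) rose. Another gene covers 20.6% of the exon bases of PVR.

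**Figure D3:**
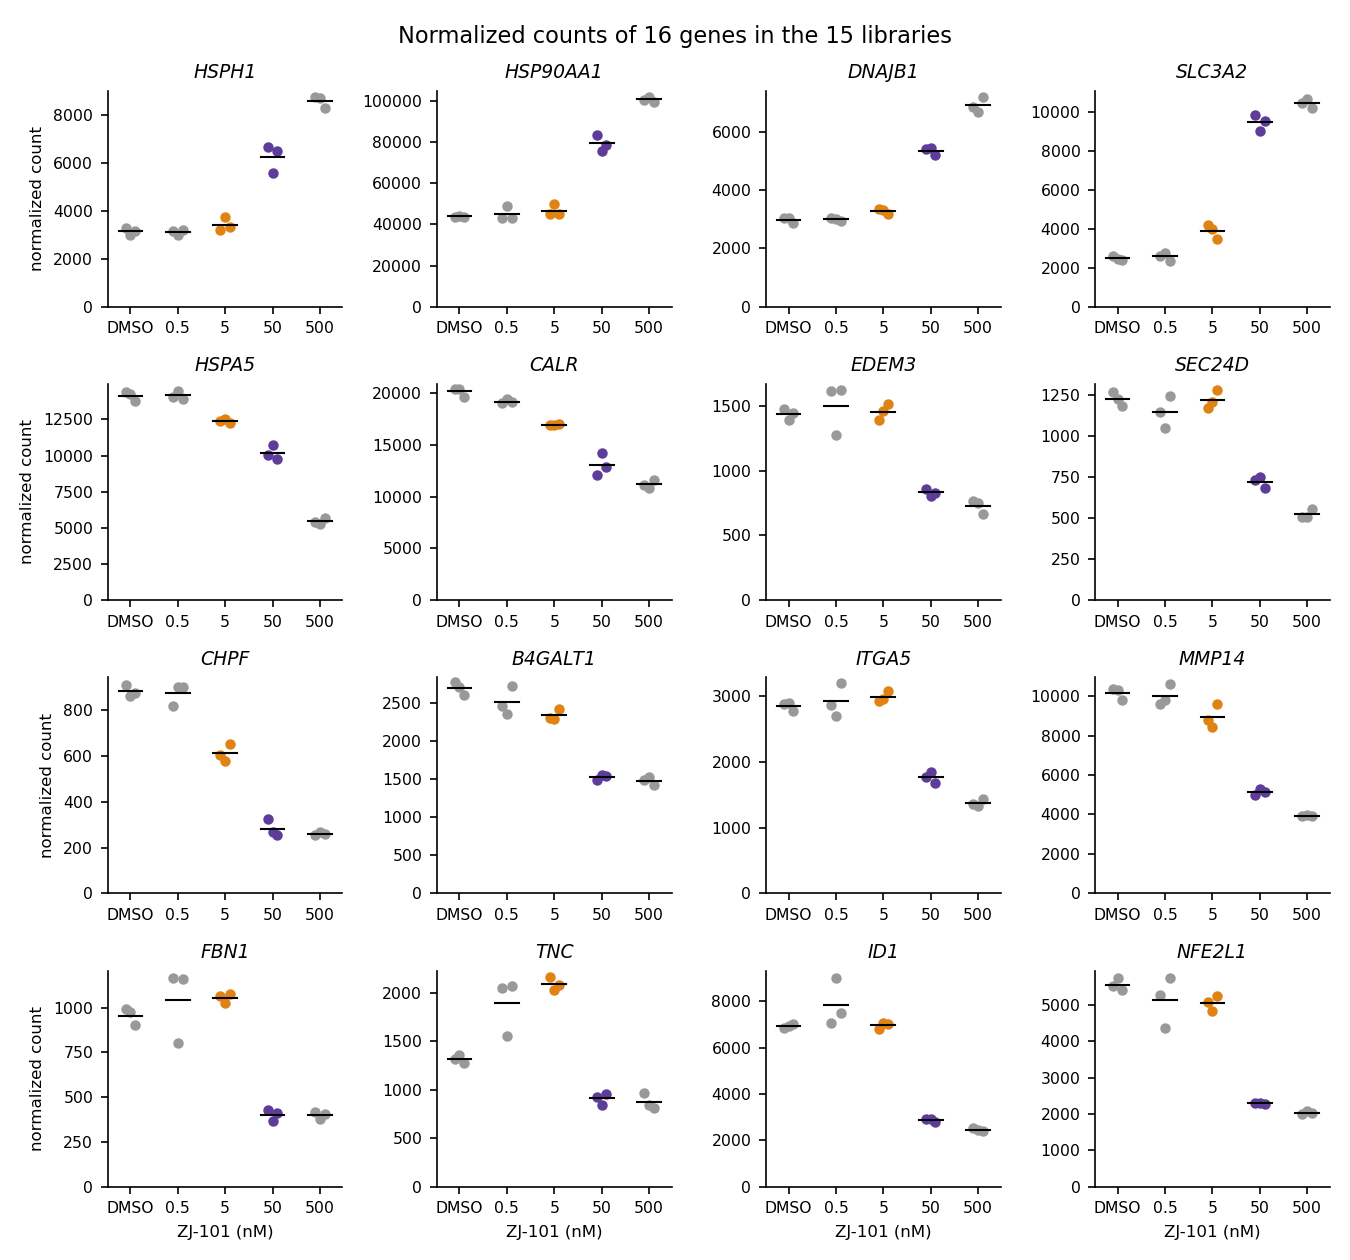
The 16 panels show the normalized counts of named genes in all 15 libraries, with DMSO and the 4 doses in nM on the horizontal axis. Points are libraries, with 5 nM in orange, 50 nM in purple and the other groups in grey, and bars are means. For each gene shown the orange and purple points do not overlap. HSPA5 goes on to a mean of 5439 at 500 nM, while FBN1 at 403 stays near its level at 50 nM.

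The ID genes, which encode inhibitors of basic helix-loop-helix factors and are targets of BMP signaling, fell together. Of 26 genes in the list of ID, BMP and TGF-beta signaling 8 fell and 2 rose (median -0.14). Over all genes, 2.39% fell and 2.62% rose. ID1 (chr20:31605283-31606515, plus strand) had 6795, 7049 and 7018 at 5 nM and 2939, 2943 and 2794 at 50 nM. It fell by 1.27 ± 0.06, with the smallest adjusted p of the step, 9.5e-10, and its DMSO mean of 6909.5 lay between the libraries at 5 nM. ID3 fell from 1281, 1223 and 1073 to 597, 595 and 529.7 (-1.05 ± 0.08), ID4 by 0.95 and ID2 by 0.65. SMAD7 (-0.43), which inhibits TGF-beta and BMP receptors, SKIL (-0.51) and SMAD9 (-1.01) fell too. BMP4, a ligand, moved the other way, from 1551, 1595 and 1506 to 2198, 2235 and 2152 (0.50 ± 0.04, adjusted p = 4.4e-07), and the receptor ACVR1 rose by 0.32.

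NFE2L1, a factor that is made in the ER membrane and drives proteasome genes, fell from 5081, 4827 and 5257 to 2302, 2307.5 and 2277, by 1.14 ± 0.07 (adjusted p = 7.8e-09). Its libraries at 50 nM lay close together and far below those at 5 nM. Its relative NFE2L3 fell by 0.67. NFE2L3 shares 28.1% of its exon bases with HNRNPA2B1 and has a near-identical pseudogene. These 2 were the calls in the list of 22 NRF2 genes, whose other members, the antioxidant targets, gave no call by limma. Over all genes, 5.01% were called.

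Receptor and cytokine genes were mixed. Of 23 Eph receptor, EGFR family and ligand genes 4 rose and 1 fell, where 2.62% of all genes rose and 2.39% fell. EPHA2, an ephrin receptor kinase, had close replicates: 10368, 10194 and 10206 at 5 nM and 14030, 13580 and 13874 at 50 nM. It rose by 0.43 ± 0.04 (adjusted p = 6.1e-07). EPHA4 (0.57), the ligand NRG1 (0.26) and EGFR (0.41, adjusted p = 0.042, lost in 11 settings) rose, and ERRFI1, an inhibitor of EGFR, fell by 0.48. GPRC5A, an orphan receptor, rose from 4407, 4859 and 4335 to 5671, 5236 and 5595 (0.28 ± 0.05). Of 25 NF-kB feedback genes and cytokines 5 fell and 2 rose. CSF1, the macrophage growth factor, fell from 8561, 8922 and 9678 to 5571, 6118 and 5444 (-0.66 ± 0.06), with IL1B (-0.53), CXCL2 (-0.47), BIRC3 (-0.30) and NFKBIA (-0.25), while CXCL1 (0.36) and CXCL8 (0.34) rose.

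The lists that follow are to be read beside the 2.62% of all genes that rose and the 2.39% that fell. Among transcription factors, 2 of 18 AP-1 and immediate-early genes fell (BHLHE40 by 0.70 and JUNB by 0.43) and IER5 rose by 0.23. Of 13 Kruppel-like factors KLF2 (-0.39) and KLF10 (-0.34) fell, and of 16 MAPK feedback genes ETV5 (-0.18) and PHLDA1 (-0.15) fell near the threshold. In the list of 20 YAP and TEAD targets AJUBA (0.28), ARHGEF17 (0.22) and AMOTL2 (0.17) rose and CRIM1 (-0.37) and NT5E (-0.20) fell. Of 27 interferon-stimulated genes 5 rose and 0 fell, BST2 by 0.34, IFIT1 by 0.22 and HERC5 by 0.19 among them. Their list had a median of 0.14 in this step and of -0.10 for 5 nM minus DMSO. Sterol and fatty acid genes showed 7 rises and 0 falls among 31 (median 0.10, and -0.10 for 5 nM minus DMSO). ACSL3, which activates long-chain fatty acids, went from 2009, 2034 and 2066 to 2609.9, 2908 and 2771 (0.44 ± 0.04), and the groups did not overlap.

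Lists of growth and of the general machinery are set beside 5.01% of all genes called. At that share a short list can hold no call. None of 35 DNA replication and S phase genes, 32 mitosis genes, 75 cytosolic ribosomal protein genes, 45 nuclear respiratory chain genes and 14 tubulins and actins was called by limma, edgeR or DESeq2. At an unadjusted p under 0.05 limma gave 5 rises in the replication list and 6 falls in the mitosis list. It gave 1 rise and 2 falls among ribosomal protein genes, 1 fall in the nuclear respiratory list and 0 among tubulins and actins. Over all genes tested, 2393 of 13561 reached that level. The 13 mitochondrially encoded respiratory genes also gave no call by the 3 tools and 0 at an unadjusted p under 0.05, and all 13 had a negative difference, with a median of -0.33. Reads of mitochondrially encoded genes took 1.5% to 2.06% of libraries at 5 nM and 1.15% to 1.77% at 50 nM. CDKN1A, the inhibitor of cyclin-dependent kinases also called p21, fell from 1714.5, 1642 and 1741 to 1136, 1220.3 and 1107 (-0.56 ± 0.05, adjusted p = 7.8e-07), and the cyclin CCND3 rose by 0.19, which were the calls among 19 MYC, cyclin and CDK inhibitor genes. MCL1 (-0.15) fell among 15 BCL2 family genes, EIF4EBP1 (-0.26) among 40 translation factors and NORAD (-0.28) among 20 long noncoding and snoRNA host genes, and SRSF7 (0.22) rose among 32 SR proteins and hnRNPs. Without the second replicate at 0.5 nM only the spread of this step changes. The direction of each difference is then fixed, but the number of calls can move. The co-chaperones then had 12 rises, the ER chaperones and folding enzymes 11 falls, and the COPI, COPII and cargo receptor genes 14 falls. Glycosaminoglycan synthesis had 13 falls and 1 rise, and the matrix 15 falls and 3 rises. The matrix proteases had 8 falls and 2 rises, and the ID and BMP list 9 falls and 3 rises. The replication, mitosis and ribosomal protein lists then had 1, 2 and 1 calls. Of the 679 genes called, 179 are in at least 1 of the 47 lists and 500 are in none. Among the latter, the largest falls of genes averaging 100 or more included SEMA3A, a secreted guidance factor, from 608, 606 and 592 to 232, 272 and 289 (-1.19 ± 0.09). Rises outside the lists included FAT3, a large cadherin, from 91.2, 72.2 and 63.9 to 159, 116 and 133 (0.84 ± 0.14) and STYK1, a kinase-like receptor, from 111, 92.7 and 85.5 to 150.4, 169 and 181 (0.79 ± 0.12). The largest fall by that rule was that of INTS3, from 338, 291 and 156 to 46.2, 42.6 and 36.2 (-2.55 ± 0.58, adjusted p = 0.013). Its libraries at 5 nM spread by more than 2 times, and the call ended without the first or second replicate at 5 nM or the third at 50 nM, with an adjusted p up to 0.066. INTS3 spread as widely in other groups, with 155, 38.4 and 266 in DMSO and 242, 45.5 and 155 at 500 nM, so that 1 DMSO library and 1 at 500 nM lay at the level of 50 nM, and the annotation holds 1 further copy of it on an alternate contig.

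The adjoining 10-fold steps were fitted in the same model, and each shares 3 libraries with the step from 5 to 50 nM. From 0.5 to 5 nM 16 genes were called (0.118%), and from 50 to 500 nM 309 genes were called (2.28%), of which 65 rose and 244 fell. A contrast of the steps tested the difference itself. Against the step below, the difference was higher in 27 genes (0.199%) and lower in 48 (0.354%), and 25 of the 27 were genes that rose and all 48 were genes that fell from 5 to 50 nM. Against the step above, it was higher in 56 genes (0.413%) and lower in 34 (0.251%). Of these 56, 29 rose and 25 were not called from 5 to 50 nM, and 32 of the 34 had fallen. Each contrast contains the step from 5 to 50 nM itself, so the agreement in direction with its calls is largely built in. Both contrasts depended on the libraries used: without the second replicate at 0.5 nM they called 105 and 345 genes, and with the 12 treated libraries 50 and 38.

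In 29 genes the step differed from both neighbors, with 8 rises and 21 falls. ID1 had log2 differences of -0.17, -1.27 and -0.23 in the steps that end at 5, 50 and 500 nM (adjusted p = 8.1e-05 and 3.0e-05 for the 2 contrasts). FBN1 had 0.04, -1.39 and 0.01 in the same order, and NFE2L1 -0.01, -1.14 and -0.17. In each of these 3 genes the difference of either neighboring step was small beside that of 5 to 50 nM. The rises in this set were SLC3A2, HSPA8, DNAJB1, DNAJA1, EPHA2, BMP4, MAL2 and MUL1. MUL1, a ubiquitin ligase of the mitochondrial outer membrane, had 823.5, 813 and 756 at 5 nM and 1190.5, 1186.5 and 1214 at 50 nM (0.59 ± 0.05), with neighbors of 0.02 and 0.15. Among the falls were CALU (-0.57) and IKBIP (-0.82) of the ER, the glycosylation genes B4GALT1 and CHPF2, EDEM3, the proteases MMP14 and PRSS23 (-0.56), PLAUR, SEMA3A, TPBG (-0.64) and MATN2 (-0.98). HSP90AA1 and HSPH1 differed from the step below (adjusted p = 0.0013 and 0.0029), but the contrast with the step above did not pass (0.066 and 0.12), and both rose again to 500 nM, by 0.35 and 0.46.

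**Figure D4:**
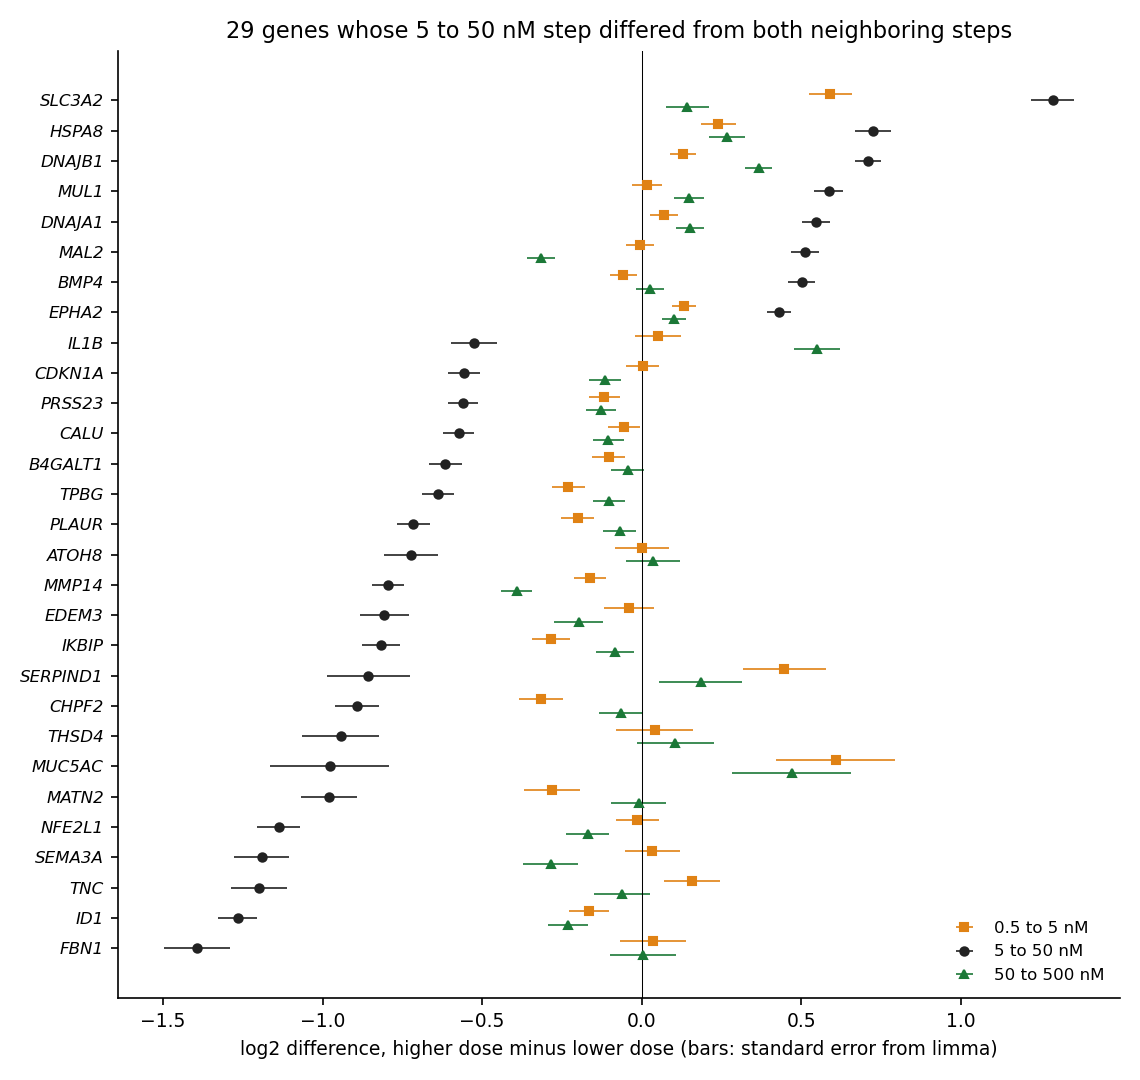
For the 29 genes that differed from both neighbors, points give the log2 difference of each 10-fold step, named by the dose at its end as 5 nM (orange squares), 50 nM (black circles) and 500 nM (green triangles), with bars for the standard error from limma. The black circle of each gene stands away from its other 2 points, as the choice of these genes requires. Those points lie near 0 for FBN1 and on the opposite side of 0 for IL1B, MUC5AC and SERPIND1, among others.

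For some genes the level at 50 nM was nearer to DMSO than the level at 5 nM was. MAL2, a membrane-trafficking protein, had means of 1884 in DMSO, 1309 at 0.5 nM, 1306 at 5 nM, 1861 at 50 nM and 1496 at 500 nM. Its libraries at 5 nM were 1375, 1308 and 1236 and those at 50 nM 1839.5, 1871 and 1873, a rise by 0.51 ± 0.04. CEMIP, a hyaluronan-binding protein chosen after its values were seen, had means of 781, 451, 481, 816 and 466 in the same order. ACSL3 (2773, 2036.5 and 2763 in DMSO, 5 and 50 nM) and BMP4 (1991, 1551 and 2195) rose to near or past their vehicle level. CXCL1 (875, 699 and 898), CXCL8 (1539, 1264.5 and 1609) and GDF15 (1359, 1088 and 1443) did the same. So did the interferon-stimulated genes BST2 (751, 631 and 800) and HERC5 (1416, 1254 and 1432). For BST2 and HERC5 the lower level of 5 nM minus DMSO was not called by limma (adjusted p = 0.12 and 0.053). IL1B, the cytokine, was the converse, with means of 637, 1006, 1044, 724 and 1061. MUC5AC, a secreted mucin, had 12694, 15774 and 19717 at 5 nM, which spread widely, and 8059, 7669 and 8361 at 50 nM, beside a DMSO mean of 6941.

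Other genes moved mainly in the step that followed. LAMB1, a laminin chain, had means of 4522 at 5 nM and 4397 at 50 nM (adjusted p = 0.78) and 2012 at 500 nM, and the contrast with the step above had an adjusted p of 9.3e-06. SEMA3C, a secreted guidance factor, had 2195 and 2437 (adjusted p = 0.12) and then 1428. LAMB2 rose from a mean of 3660 to 4130.2 and stood at 2355 at 500 nM, a difference of -0.81 (adjusted p = 8.3e-09). HSPA5 fell by 0.29 from 5 to 50 nM but had a difference of -0.91 from 50 to 500 nM (adjusted p = 1.6e-04 for the contrast). The contrast thus ran one way for HSPA8 and DNAJB1, whose rise was larger from 5 to 50 nM than from 50 to 500 nM, and the other way for HSPA5, whose larger fall came in the later step.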

How the data were processed

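RNA was measured by poly-A RNA-seq (paired 150-base reads) in 15 libraries of MDA-MB-231 cells. The authors used HISAT2 with hg38, then htseq-count for counts per gene and DESeq2 for size factors. Versions and the strand setting are not given in the sources used here. The deposited values are a signal, normalized read counts per gene, that is counts divided by a size factor per library by the authors. Whole reads were recovered from them for 100% of values within 0.001 of a whole number, which gave the depths of 12415519 to 15284762 reads that limit the precision of low genes.

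Genes averaging 10 or more normalized counts were tested with limma 3.58.1 (R 4.3.3) on log2(normalized count + 1) with a mean-variance trend, all 5 groups in 1 fit, contrasts of doses and Benjamini-Hochberg adjustment at 0.05. Fold changes are on that scale, which understates those of low genes. DMSO libraries entered the filter, the shared spread and the DMSO means given as background. Apart from differences named as 5 nM minus DMSO, they did not enter the contrasts. The scripts were tested on simulated data. Alternatives were pseudocounts, filters, scalings, edgeR 4.0.16 and DESeq2 1.42.0 on the recovered reads, fewer groups, a replicate block and leaving out each library. Replicate numbers did not pair the libraries. Gene positions are from GENCODE v44 and promoters from RefSeq.

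Members and gene lists were chosen with earlier results of these data known. Named genes are the 8 largest rises and falls without overlap among genes averaging 100 or more, the 5 with the smallest p in each direction, up to 3 per direction in each list, 4 per direction for each contrast of steps and the genes the study names for its transcriptome, with 65 more chosen after their values were seen. Members of a list that moved but were named beyond 3 are among the 65. Values of some genes are not reported here.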

Additional observations from a re-analysis of the deposited data

How the results depend on the processing

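Of the 679 genes called from 5 to 50 nM, 20 had a log2 difference of at least 1. Leaving out 1 library at a time gave 424 to 1129 genes for this step, 22 to 115 for its contrast with the step below and 39 to 345 for its contrast with the step above, against 75 and 90 with all libraries. The step had 424 calls without the third replicate at 5 nM, 435 without the second, 430 without the first at 50 nM and 1129 without the second at 0.5 nM. The contrast with the step below had 22 and 42 calls without the third and second replicates at 5 nM and 115 without the third at 0.5 nM. The contrast with the step above had 345 without the second replicate at 0.5 nM and 39 without the third at 50 nM. With DESeq2 the contrasts called 113 and 171 genes, and with a log2 difference of at least 1 they called 10 and 15. The contrast with the step above called 56 with no filter, 38 with the 12 treated libraries and 174 at an adjusted p under 0.1, and the cause was not tested. The replicate block gave 714, 78 and 95 calls, and the same numbers did not deviate together (correlations between -0.025 and 0.006). Scaling to the same total moved the split of the step to 400 rises and 283 falls. In the 26 settings no named gene reversed. Settings that leave out libraries of other doses, change the filter or add the replicate block cannot change the difference, so they could not have reversed it. Only the pseudocounts, the scalings, edgeR, DESeq2 and leaving out a library at 5 or 50 nM could. Of 184 named genes called, 143 held in every setting and 41 lost the call in at least 1, in each case also without 1 or more single libraries of 5 or 50 nM. HERPUD1, B4GALT3, ARHGEF17, EIF2AK3, GOLGA5, LAMB2, PHLDA1, IER5, EGFR, ETV5, MCL1, XBP1 and ERO1B lost it most widely. Others were ALG5, AMOTL2, BST2, CAV1, CDH11, CXCL1, DNAJC3, EFEMP1, EIF4EBP1, HERC5, HSPA13, IFIT1, INTS3, ITGB4, JUNB, KLF2, LAMP1, NT5E, SELENOS, SREBF1, SRPRB, STX5, TCP1, TMED10, TMEM238, UBB and WIPI1. Counts of calls per list stayed within 1.5 times in 2367 of the comparisons with a setting and moved in 265.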

Other observations

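Genes outside the 47 lists were looked at after their values were seen, and no theme was tested among them. Besides SEMA3A, the semaphorins SEMA3B (-0.61) and SEMA7A (-0.37) fell from 5 to 50 nM. The Notch ligand JAG1 fell from 4149, 4094 and 4371 to 3001, 2994 and 2997 normalized counts (-0.49 ± 0.06, SE), and HES1, a Notch target, from 223, 222 and 236 to 127, 121 and 141 (-0.80 ± 0.11). FURIN, the protease that matures many secreted proteins, fell by 0.54. IL7R, a cytokine receptor chain, rose from 328, 289.7 and 292 to 603, 463 and 477 (0.75 ± 0.09). In all 3 genes whose libraries are given, the groups did not overlap.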
